A study of Mus musculus with 8 samples.

Results

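The 9 genes described here mark or drive the step at which male germ cells leave the spermatogonial state and enter meiosis: Uchl1, Dmrt1, Sohlh1, Sohlh2, Kit, Dmrtb1, Stra8, Meioc and Ythdc2. They were chosen by name for these roles, with earlier results of these data known. All 9 were found among the 18584 genes listed at 1 or more ages. Meioc was found under its older symbol Gm1564 and the other 8 under their own symbols. All 9 are among the 17194 genes listed at 20 days post partum (dpp), and Dmrtb1 is not listed at 16.5 days post coitum (dpc).

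RNA from whole testis was sequenced in 8 libraries from male mice of a C3H/HeJ - C57BL/6J hybrid background. Mutants were homozygous for an IAP allele of Dnmt3C (IAP/IAP), a gene for a DNA methyltransferase of male germ cells, and IAP is a family of mouse retrotransposons. The controls were heterozygous (IAP/WT), so they carried 1 copy of the same allele and are not wild type. There was 1 mutant and 1 control library at 16.5 dpc, 1 of each at 10 dpp, and 2 of each at 20 dpp. The labels do not state if replicate libraries represent different animals or pools, and the p-values cover the variation among these libraries alone, which may be technical. No value of Dnmt3C was analysed here, and the genotype labels were not checked against it.

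Spermatogonia are the mitotic germ cells that line the seminiferous tubule. Retinoic acid made in the testis moves them from an undifferentiated to a differentiating, KIT-positive state, and later switches on Stra8, after which the cells replicate their DNA once more and begin meiosis. DMRT1, SOHLH1 and SOHLH2 act in the mitotic phase, DMRTB1 at the exit from it, and MEIOC with YTHDC2 in the period just after meiotic entry.

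Sequence upstream of 3 genes is shown: Sohlh1 and Stra8 were higher in the mutants at 20 dpp and Dmrtb1 was the member with the largest decrease. Uchl1, Dmrt1 and Kit were higher too and are not printed. The sequences are from RefSeq (build GRCm38.p6), and windows of 7 of the 9 genes were used. They read 5′ to 3′ on the strand of the gene and end at the base before its start. Dmrtb1 and Kit have 2 windows each in that source, and only the one with the start farthest upstream was used. Capitals mark every match, on either strand, to AGGTCA (the core bound by retinoic acid receptors), CACGTG (a form of the E-box bound by basic helix-loop-helix factors), ACATTGT (a DMRT core) or CNCCTCAG (a STRA8 motif). CACGTG is one form of the wider E-box CANNTG, which was searched too and not capitalised. Of 32851 mouse windows of the same length, 14.0% hold AGGTCA, 6.02% CACGTG, 66.2% CANNTG, 2.56% ACATTGT and 6.42% CNCCTCAG. CACGTG was added after the sequences were seen, so its 6.02% is no test of the matches in Sohlh1.
Sohlh1 (chr2:25847249-25847498, minus strand): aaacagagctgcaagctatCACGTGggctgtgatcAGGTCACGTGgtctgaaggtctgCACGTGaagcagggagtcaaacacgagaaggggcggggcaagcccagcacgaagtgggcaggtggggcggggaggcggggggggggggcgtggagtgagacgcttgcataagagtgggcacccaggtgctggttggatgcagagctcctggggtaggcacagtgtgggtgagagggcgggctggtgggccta
Dmrtb1 (chr4:107684231-107684480, minus strand): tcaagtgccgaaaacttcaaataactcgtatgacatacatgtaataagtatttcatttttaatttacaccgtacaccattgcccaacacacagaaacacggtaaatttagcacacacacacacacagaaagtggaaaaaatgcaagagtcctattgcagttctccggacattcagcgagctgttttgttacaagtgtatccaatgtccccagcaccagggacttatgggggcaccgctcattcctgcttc
Stra8, first AGGTCA (chr6:34920742-34920771, plus strand): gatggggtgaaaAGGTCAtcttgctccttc
Stra8, second AGGTCA (chr6:34920898-34920927, plus strand): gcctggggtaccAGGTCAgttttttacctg
Stra8, ACATTGT read on the minus strand (chr6:34920791-34920820, plus strand): tggcaagttgttACAATGTtttcaccaatg

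The Sohlh1 window holds 3 copies of CACGTG, the farthest 231 bases and the nearest 187 bases before the start, and its AGGTCA at 215 to 210 overlaps the middle CACGTG. The Dmrtb1 window holds no capitals and 2 matches to CANNTG. Stra8 is shown only as 30-base stretches because the whole 250-base window lies inside an exon of a longer GENCODE transcript of that gene. Its AGGTCA matches lie 194 to 189 and 38 to 33 bases before the RefSeq start. Among the windows not printed, Sohlh2 holds 1 CNCCTCAG and 1 CANNTG, while Uchl1, Kit and Meioc hold no match to any of the 5 patterns. These are letter matches only, and binding was not measured.

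Libraries held between 57166311 and 155742823 gene reads. Values were analysed as scaled reads, the count of a gene times the deposited factor of its library, and as the log2 of that value plus a pseudocount of 1. Markers of germ, Sertoli, Leydig and peritubular cells were present in all 8 libraries. Ddx4 (germ cells), for example, lay between 181 and 900 counts per 1000000 gene reads (CPM), Wt1 (Sertoli cells) between 82.8 and 365, and Star (Leydig cells) between 24.0 and 369.

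At 20 dpp, when control testes contain spermatocytes, 5 of the 9 genes rose in mutants, 2 fell and 2 did not pass the test. Uchl1, Dmrt1, Sohlh1, Kit and Stra8 rose, by 1.48-fold for Kit to 3.06-fold for Stra8, while Dmrtb1 fell 14.1-fold and Meioc 1.63-fold. Of all 17194 genes, 59.5% passed the same test, 26.4% higher and 33.1% lower in mutants, so 7 of 9 stands beside a large background. The median log2 change was 0.57 over the 9 genes and 0.05 over all genes. With the deposited factors, the 2 libraries of a genotype did not overlap those of the other for any of the 9, which was also so for 82.4% of all genes. In whole testis, fewer cells of a type and less RNA per cell cannot be told apart.

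Among the spermatogonial genes, Uchl1 (chr5:66676091-66687234; mm10, as for the genes that follow), which encodes a ubiquitin hydrolase abundant in spermatogonia, had 8685 and 8952 scaled reads in the controls and 19977 and 19649 in the mutants. Both mutants were more than 2-fold above both controls, and replicates lay within 1.03-fold of each other. The log2 change was 1.17 ± 0.11 (SE, n = 2 per genotype; limma adjusted p = 0.00012). An antisense gene, Uchl1os, shares exonic bases with Uchl1, and no source used here states whether reads were counted by strand, so reads of the pair cannot be told apart.

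Dmrt1 (chr19:25505618-25604329) encodes a DM domain transcription factor that holds spermatogonia in the mitotic programme and represses Stra8 there, and it is also expressed in Sertoli cells. It had 9322 and 9780 scaled reads in controls and 18021 and 20141 in mutants. All mutant values were above all control values, and the log2 change was 1.00 ± 0.12 (limma adjusted p = 0.00039).

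Sohlh1 (chr2:25842995-25847248) encodes a germ cell basic helix-loop-helix factor needed for differentiation, and gave 1114 and 1188 scaled reads in controls against 2651 and 2135 in mutants. The mutants were higher by 1.05 ± 0.20 on the log2 scale (limma adjusted p = 0.0033), and they differed from each other by 1.24-fold. Sohlh2 (chr3:55182028-55209957), its partner factor, had 4080 and 5173 scaled reads in controls and 3903 and 3482 in mutants. Its log2 difference was -0.32 ± 0.17 with a 95% interval from -0.72 to 0.08 (limma adjusted p = 0.14), and it took the opposite sign, 0.28, when libraries were scaled by total gene reads. The proportion of the partners is one that no scaling changes: reads per kilobase of Sohlh1 over those of Sohlh2 were 1.25 and 1.12 in the mutant libraries and 0.501 and 0.421 in the controls.

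Kit (chr5:75574916-75656722) encodes the receptor tyrosine kinase for stem cell factor, a marker of differentiating spermatogonia that Leydig and mast cells also carry. Controls had 6167 and 6975 scaled reads and mutants 8786 and 10782. The mutants lay above the controls without overlap, with a log2 change of 0.57 ± 0.15 (limma adjusted p = 0.014). The call was lost without control replicate 1, where the change was 0.48 (limma adjusted p = 0.0902), and when the variance was fitted without a trend (limma adjusted p = 0.0622).

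Dmrtb1 (chr4:107676290-107684230), also known as Dmrt6, encodes a DM domain factor that accompanies the end of the mitotic programme. It had 81959 and 47304 scaled reads in the controls and 4655 and 4216 in the mutants. The controls differed from each other by 1.73-fold, and each was more than 10-fold above each mutant. The log2 change was -3.81 ± 0.24, with a 95% interval from -4.38 to -3.25 (limma adjusted p = 1.3e-05). Reads per kilobase of Dmrtb1 over those of Dmrt1, a ratio that no scaling changes, were 10.9 and 6.02 in controls and 0.322 and 0.261 in mutants.

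Stra8 (chr6:34920163-34939344), the retinoic acid target whose product starts the meiotic programme, had 3687 and 3327 scaled reads in controls and 9946 and 11557 in mutants. Both mutants were above both controls by more than 2-fold. Its log2 change of 1.61 ± 0.14 (95% interval from 1.28 to 1.95; limma adjusted p = 7.1e-05) was the largest increase among the 9 genes. Relative to Kit, reads per kilobase of Stra8 were 5.6 and 5.3 in mutants and 2.96 and 2.36 in controls.

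Meioc (chr11:102663716-102682237) and Ythdc2 encode partners, a coiled-coil protein and an RNA helicase that binds modified RNA, which together lower mitotic transcripts in early meiotic cells. Meioc had 59403 and 63320 scaled reads in controls and 46699 and 30233 in mutants. The mutants were lower and differed from each other by 1.54-fold, and the log2 change was -0.71 ± 0.20 (limma adjusted p = 0.019). The Meioc call was lost with total gene reads, at -0.11 (limma adjusted p = 0.648), and without either control, at -0.75 without replicate 1 and -0.66 without replicate 2 (limma adjusted p = 0.0557 and 0.0761). Its size depended on the mutants, at -1.02 without mutant replicate 1 and -0.39 without mutant replicate 2 (limma adjusted p = 5.09e-05 and 0.0406). Ythdc2 had 17877 and 17595 scaled reads in controls and 17196 and 14735 in mutants, a log2 difference of -0.16 ± 0.13 with a 95% interval from -0.45 to 0.14 (limma adjusted p = 0.32). With total gene reads the Ythdc2 difference turned to 0.44 and passed the test (limma adjusted p = 0.0207). Per kilobase, Meioc over Ythdc2 was 5.22 and 3.95 in mutants and 6.39 and 6.92 in controls. These 4 within-library ratios are a description, since an exact permutation test of 2 against 2 cannot give a two-sided p below 0.333.

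**Figure D1:**
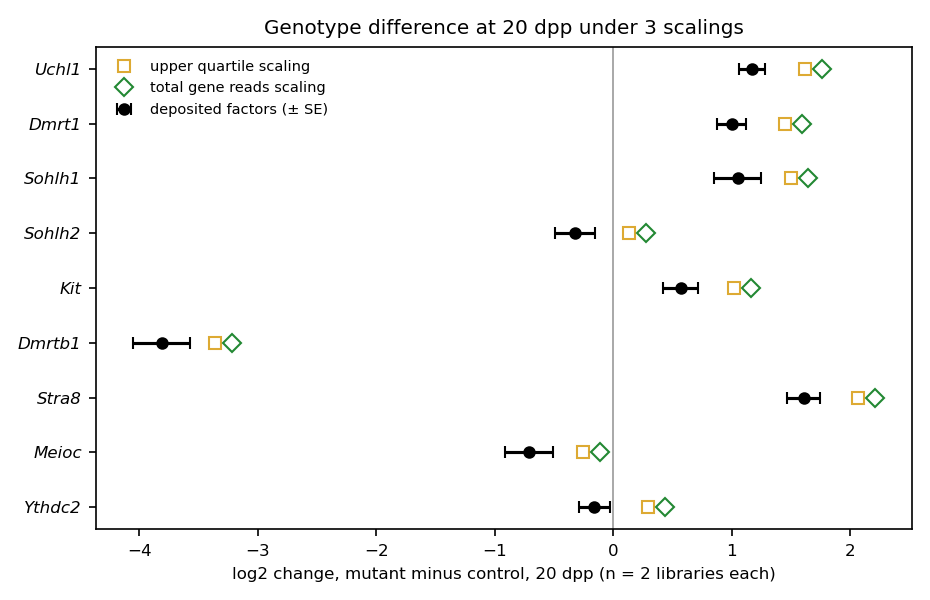
Log2 change of the 9 genes at 20 dpp, mutant minus control, with the deposited library factors (filled points, bars 1 SE), upper quartile scaling (squares) and total gene reads (diamonds), n = 2 libraries per genotype. Uchl1, Dmrt1, Sohlh1, Kit and Stra8 stay above 0 and Dmrtb1 and Meioc below 0 under all 3 scalings, while Sohlh2 and Ythdc2 change sign.

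The scaling matters because the other scalings moved the median of all genes: by 0.59 on the log2 scale with total gene reads and by 0.45 with the upper quartile.

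At the 2 earlier ages no member differed by 2-fold between the genotypes. Each genotype had 1 library there, so ratios carry a 95% exact interval for counting error only and no test of genotype. A ratio counted as called when it was past 2-fold with an interval that excludes 1 and at least 50 reads. None of the 8 listed members was called at 16.5 dpc and none of the 9 at 10 dpp, where 0.734% and 0.886% of all genes were.

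At 10 dpp Dmrtb1 had 2483 scaled reads in the mutant and 2465 in the control, a ratio of 1.01 (0.95 to 1.07). Dmrt1 also had a ratio of 1.01 (0.99 to 1.03), from 20721 scaled reads in the mutant and 20547 in the control. Stra8 had 5891 scaled reads in the mutant and 6565 in the control, a ratio of 0.90 (0.87 to 0.93). So 3 genes that differed at 20 dpp were within 1.11-fold of the control 10 days earlier. Uchl1, Sohlh1, Kit and Ythdc2 had ratios of 0.93, 0.92, 0.91 and 1.02. The 2 members farthest from 1 were Sohlh2 at 0.82 (0.78 to 0.86) and Meioc at 1.22 (1.17 to 1.27), and 16.2% and 16.9% of all genes were farther from 1 than these.

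In the 16.5 dpc testis, whose germ cells are arrested prospermatogonia, Sohlh1 had 1075 scaled reads in the mutant and 660 in the control, a ratio of 1.63 (1.48 to 1.80). It was the farthest member from 1 at that age, and 4.57% of all genes were farther. Uchl1 had 5111 scaled reads in the mutant and 3694 in the control, a ratio of 1.38 (1.33 to 1.44). Stra8 was scarce, with 196 reads in the mutant library and 107 in the control, and its ratio was 1.41 (1.11 to 1.80). Sohlh2 went the other way, at 0.70 (0.59 to 0.83) from 265 and 292 reads. The remaining ratios were 1.26 for Meioc, 1.16 for Dmrt1, 1.12 for Kit and 0.90 for Ythdc2.

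Whether the genotype difference itself changed between 10 and 20 dpp was tested in a fit of all 8 libraries, which assumes that single libraries vary like those of 20 dpp. The difference became more positive for Stra8, by 1.77 ± 0.28 on the log2 scale (limma adjusted p = 0.0029), for Uchl1, by 1.27 ± 0.20 (limma adjusted p = 0.0026), for Sohlh1, by 1.16 ± 0.33 (limma adjusted p = 0.03), and for Dmrt1, by 0.98 ± 0.21 (limma adjusted p = 0.011). Over the 16282 genes listed at all ages, 31.9% passed, 9.29% as more positive and 22.6% as more negative at 20 dpp. Kit (0.71 ± 0.26, limma adjusted p = 0.069), Meioc (-0.99 ± 0.34, limma adjusted p = 0.062), Ythdc2 (-0.18 ± 0.22, limma adjusted p = 0.56) and Sohlh2 (-0.03 ± 0.32, limma adjusted p = 0.95) did not pass. With total gene reads the values of Sohlh2 and Ythdc2 were 0.58 and 0.43, of opposite sign. Dmrtb1 was tested in a fit of the 10 and 20 dpp libraries alone, chosen after seeing that it is not listed at 16.5 dpc, and its change of -3.82 ± 0.41 passed (limma adjusted p = 0.00035; 32% of 16578 genes did). The Sohlh1 and Dmrt1 calls were lost when the variance was fitted without a trend (limma adjusted p = 0.0708 for both), and the Sohlh1 call without control replicate 1 (limma adjusted p = 0.07).

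**Figure D2:**
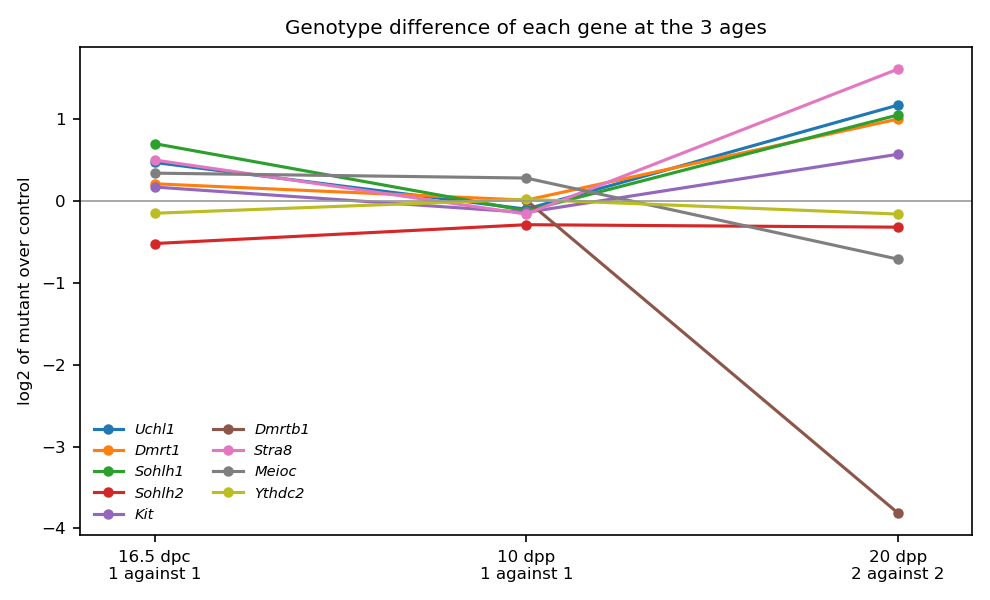
Log2 of mutant over control for each of the 9 genes at 16.5 dpc and 10 dpp (1 library against 1) and at 20 dpp (2 against 2), with the deposited library factors and lines joining the ages of a gene. Values lie between -0.29 and 0.28 at 10 dpp and spread from -3.81 (Dmrtb1) to 1.61 (Stra8) at 20 dpp; Dmrtb1 has no value at 16.5 dpc, and Sohlh2 and Ythdc2 are above 0 at 20 dpp when total gene reads are used.

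Levels across ages are given in CPM as a description, since the tables were scaled separately for each age. In controls the spermatogonial genes and Stra8 were highest at 10 dpp and lower at 20 dpp. Stra8 went from 1.87 CPM at 16.5 dpc to 100 at 10 dpp and 25.1 ± 0.7 (SD, n = 2) at 20 dpp, a 53.4-fold higher value followed by a 3.98-fold lower one. In mutants it was 2.64, 89.0 and 116.5 ± 9.62 CPM, so at 20 dpp it was above the level of both 10 dpp libraries.

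Uchl1 was 56.7, 245.4 and 63.3 ± 4.2 CPM in controls and 78.4, 226.6 and 214.9 ± 7.57 CPM in mutants, in order of age. Dmrt1 was 26.1, 313.0 and 68.6 ± 5.4 CPM in controls and 30.2, 313.1 and 206.8 ± 11.5 CPM in mutants. For both genes the 20 dpp mutants were nearer to 10 dpp than the 20 dpp controls were: 1.05-fold below the 10 dpp mutant against 3.87-fold below the 10 dpp control for Uchl1, and 1.51-fold against 4.56-fold for Dmrt1. Kit showed the same order, with 38.0, 144.3 and 47.3 ± 6.22 CPM in controls and 42.6, 129.6 and 105.9 ± 12.8 in mutants.

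Sohlh1 was 10.1, 47.6 and 8.27 ± 0.75 CPM in controls and 16.5, 43.5 and 26.0 ± 4.57 in mutants. Its lowest group was the 20 dpp control. Sohlh2 was 5.11, 58.5 and 33.3 ± 7.04 CPM in controls and 3.57, 47.4 and 40.1 ± 4.16 in mutants, and its 20 dpp groups differed by less than their SDs added together. In CPM the Sohlh2 libraries of the genotypes overlapped at 20 dpp.

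In controls the other 3 genes were highest at 20 dpp. Dmrtb1 went from 37.6 CPM at 10 dpp to 460.1 ± 155 at 20 dpp in controls, 12.3-fold higher, and from 37.5 to 48.1 ± 4.49 in mutants, 1.28-fold higher. Meioc was 7.42, 65.8 and 440.9 ± 39.7 CPM in controls and 9.37, 79.3 and 418.7 ± 136 in mutants, so it was 6.70-fold and 5.28-fold higher at 20 than at 10 dpp, and in CPM the genotypes overlapped at 20 dpp. Ythdc2 was 43.2, 63.9 and 127.3 ± 4.24 CPM in controls and 38.9, 64.4 and 173.4 ± 22.9 in mutants. Factors computed over all 8 libraries together gave every one of these age ratios on the same side of 1, but their sizes changed. Against the 10 dpp control, the 20 dpp controls were then 2.68-fold lower for Uchl1, 3.16-fold for Dmrt1 and 2.75-fold for Stra8, and 17.9-fold higher for Dmrtb1. Of the member levels, 32 moved outside the SD or counting interval of the CPM value and 20 did not. With these factors the 20 dpp mutants were below the controls for Sohlh2 (35.8 against 42.7) and Ythdc2 (154.8 against 163.8).

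**Figure D3:**
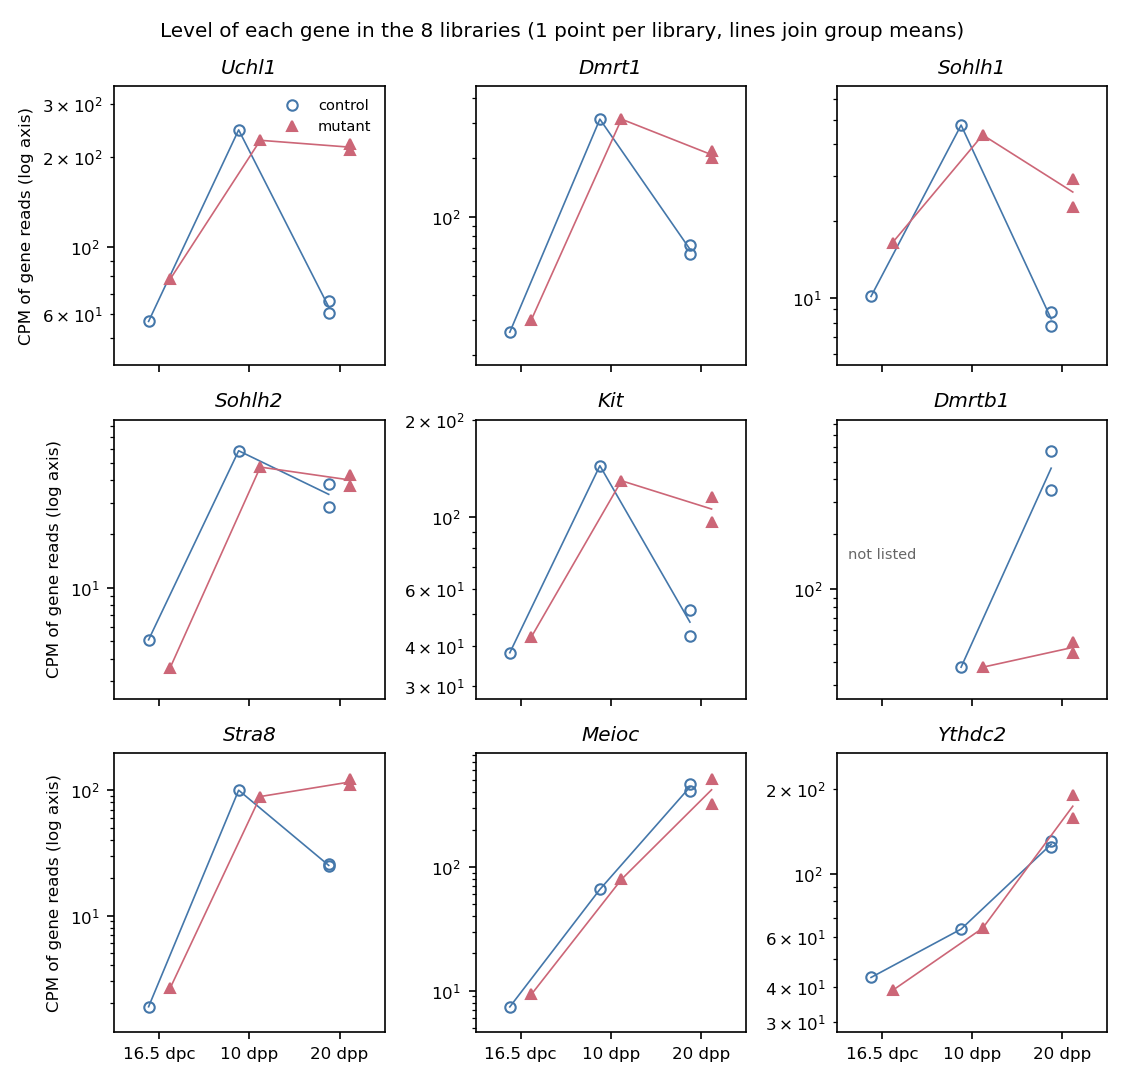
Level of each of the 9 genes in CPM (log axis) at the 3 ages, 1 point per library (open circles, controls; filled triangles, mutants) with lines joining group means. Stra8, Uchl1, Dmrt1, Sohlh1, Kit and Ythdc2 are lower in the controls than in the mutants at 20 dpp, and Dmrtb1 is higher. Sohlh2 and Meioc overlap between the genotypes. With the deposited factors the mutants lie below the controls for Sohlh2, Meioc and Ythdc2.

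Compared per kilobase of exon, so that genes of different length can be set side by side, the order of the 9 genes in CPM per kilobase changed with age and genotype. The 10 dpp control was led by Uchl1 at 150.4, Dmrt1 at 120.7 and Stra8 at 55.5. The 20 dpp controls were led by Dmrtb1 at 220.8 ± 74.5 (SD, n = 2), Meioc at 95.5 ± 8.59 and Uchl1 at 38.8 ± 2.57. The 20 dpp mutants were led by Uchl1 at 131.7 ± 4.67, followed by Meioc at 90.7 ± 29.4, Dmrt1 at 79.7 ± 4.41 and Stra8 at 64.6 ± 5.35, with Dmrtb1 at 23.1 ± 2.16. Within the mutants, Meioc did not differ from Dmrt1 or from Stra8 by more than their SDs added together, and neither did neighbours among Dmrtb1, Sohlh1 (20.2 ± 3.54), Ythdc2 (19.5 ± 2.58) and Sohlh2 (17.0 ± 1.76). In the controls Ythdc2 (14.3 ± 0.481), Sohlh2 (14.1 ± 2.98) and Stra8 (13.95 ± 0.389) lay together.

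Over the 8 libraries, the genes most like each of the 8 members listed at every age were found by Pearson correlation of log2 CPM among 11993 protein-coding genes; the libraries share genotype and age, so these values are a description. Closest to Stra8 were Cidea (0.998) and Strip2 (0.9972), to Dmrt1 Vapa (0.9977) and Nanos1 (0.9973), to Kit Dock5 (0.9983) and D330045A20Rik (0.9955), and to Uchl1 Rec114 (0.9937) and Mro (0.9931). Sohlh1 had its nearest at 0.9869 (Smarca5) and 0.9856 (Wdr5), the lowest values of the set, and Sohlh2 at 0.9919 (Psph) and 0.9917 (Polr3e). Meioc was closest to Dnttip1 (0.997) and to Sycp1 (0.9966), a synaptonemal complex gene, and Ythdc2 to Atg13 (0.9995) and Naa15 (0.9991). Among the members themselves, Kit correlated with Uchl1 and with Dmrt1 at 0.97, Meioc with Ythdc2 at 0.95, and Sohlh1 with Sohlh2 at 0.46. Dmrtb1 has no such values, since it is not listed at 16.5 dpc.

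The genes around these 9 at 20 dpp were followed in lists of known function. The counts stand beside the 59.5% of all genes that passed, 26.4% higher and 33.1% lower in mutants. In the list for undifferentiated spermatogonia, 12 of 22 members rose and 2 fell, with a median log2 change of 0.95. The counts were 10 and 2 without a trend and 14 and 1 with total gene reads. With each 20 dpp library left out in turn, the median was 0.78 to 0.97. Lin28a, an RNA-binding protein of spermatogonia, rose by 1.34 on the log2 scale, which is used for all listed genes, while Id4, a marker of the most primitive spermatogonia, fell by 2.35. Of 20 other regulators of spermatogonial differentiation, 12 rose and 6 fell (median 0.74), against 11 and 4 without a trend and 14 and 3 with total gene reads. The germ cell TFIID subunit gene Taf7l rose by 1.72, and the RNA helicase gene Ddx4 fell by 2.26.

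For the signals that act on the members, 11 of 22 retinoic acid pathway genes rose and 3 fell (median 0.71). Among them the receptor gene Rara rose by 0.87 ± 0.17 (limma adjusted p = 0.0034), while Rdh11, a retinol dehydrogenase gene, fell by 3.18 and Aldh1a2, a retinoic acid synthesis gene, fell by 1.62. Of 20 genes of KIT signalling, 9 rose and 5 fell (median 0.36). Both lists stand beside the 26.4% of all genes that rose and the 33.1% that fell. Kitl, the ligand of KIT made by Sertoli cells, rose by 0.81 ± 0.22 (limma adjusted p = 0.015), a call lost without a trend (limma adjusted p = 0.0749) and without control replicate 1 (limma adjusted p = 0.0895). Cbl, a ubiquitin ligase gene that limits receptor signalling, fell by 2.16, and Mtor fell by 1.62. Without control replicate 1 the counts were 6 and 3 for the retinoic acid list and 5 and 2 for KIT signalling, and with total gene reads 18 and 3, and 13 and 2. Without control replicate 2 the KIT signalling counts were 8 and 2. Rara and Kitl, and Rbm46 among the meiotic genes, are named for their roles, outside the rule that takes the 2 genes of lowest p from each list. Prdm9 is named outside that rule too, to show a meiotic entry partner that rose.

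On the meiotic side, 6 of 18 measured meiotic entry partners rose and 6 fell (median 0.44), shares near the 26.4% and 33.1% of all genes. Mael, a piRNA pathway gene, fell by 3.30. Ccna1, a meiotic cyclin gene that is in the list for pachytene and later spermatocytes too, fell by 7.58. Rbm46, whose product works with MEIOC and YTHDC2, fell by 1.23 ± 0.16 (limma adjusted p = 0.00051), and it is also in the list of other regulators. Of the meiotic entry partners that rose, Prdm9 had the lowest p, with a log2 change of 1.91 ± 0.16 (limma adjusted p = 4.8e-05). Of 34 measured early meiotic prophase genes, 7 rose and 20 fell, with a median of -0.73, and the lowest p were those of Syce1 (-2.83) and Ccdc155 (-2.55). This split depended on the scaling, with 13 higher and 10 lower by total gene reads (median -0.13) and 12 and 11 by the upper quartile (median -0.27). Without either control, 4 rose and 18 fell. Genes of later stages fell almost throughout: 22 of 23 for pachytene and later spermatocytes (median -6.41; Clgn -5.79, Ropn1l -6.51) and 17 of 17 for round spermatids (median -5.49; Catsper2 -4.58, Tbpl1 -2.94). The lists at 10 dpp had medians between -0.13 and 0.01 from undifferentiated spermatogonia to round spermatids.

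**Figure D4:**
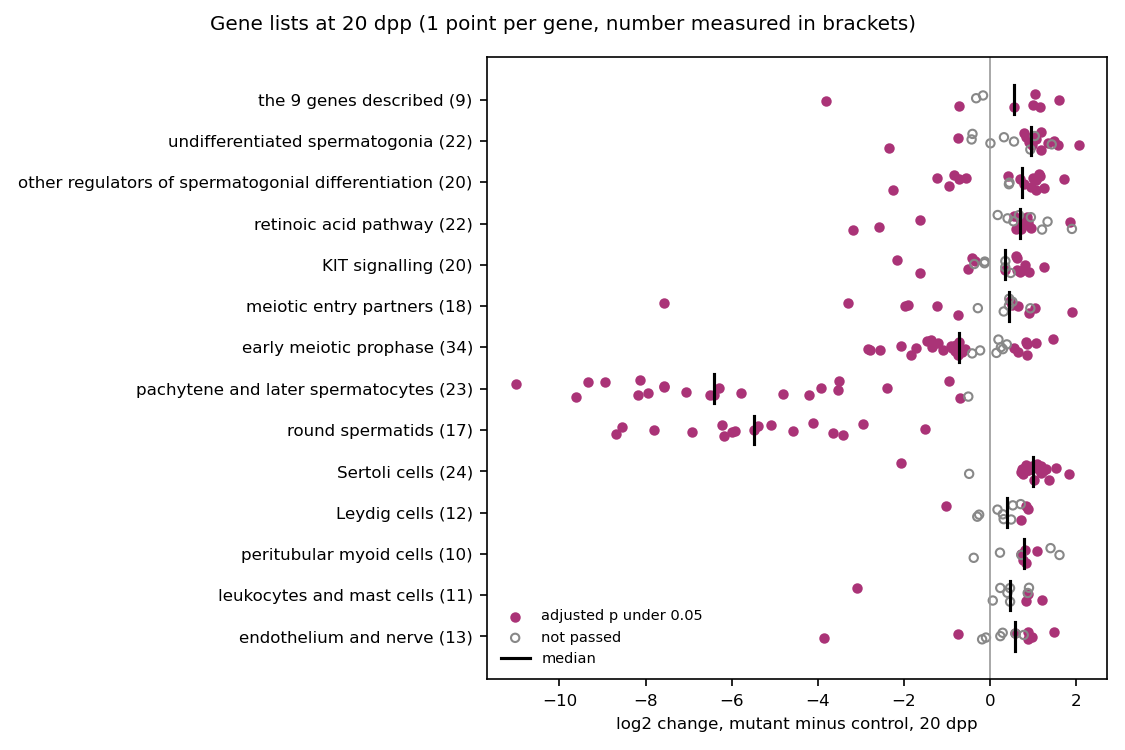
Log2 change at 20 dpp, mutant minus control, for the 9 genes and for 13 lists, 1 point per gene (filled, limma adjusted p under 0.05; open, not passed), with the median of each list as a bar, on the deposited factors. Medians run from 0.95 for undifferentiated spermatogonia through -0.73 for early meiotic prophase to -6.41 for pachytene and later spermatocytes and return to 1.00 for Sertoli cells; among the 9 genes Sohlh2 and Ythdc2 take the other sign with total gene reads.

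Markers of other testis cells were followed at 20 dpp as well, where 26.4% of all genes rose and 33.1% fell. In the Leydig and leukocyte lists the shares that rose were near that of all genes, and smaller shares fell. Of 24 Sertoli genes, 22 rose and 1 fell (median 1.00); Wt1 rose by 1.37 and Cst9 fell by 2.06. Their summed scaled reads were 972496 and 1051572 in mutants and 513163 and 554832 in controls, beside a log2 change of 1.00 for Dmrt1, which Sertoli cells also express; their part in it was not tested. Of 12 Leydig genes, 3 rose and 1 fell (median 0.41), with Scarb1 at 0.71 and Nr5a1, which is in the Sertoli list too, at 0.87, and their sums overlapped, at 149953 and 104420 in mutants and 73907 and 139770 in controls. The Leydig median was -0.10 without control replicate 1 and 0.02 without mutant replicate 1, and without control replicate 2 it was 0.90 with 6 higher. Of 11 measured leukocyte and mast cell genes, 3 rose and 1 fell (median 0.47), with Aif1 at -3.09 and Fcer1g at 1.20, and sums of 28586 and 24881 in mutants and 16467 and 24868 in controls. In that list 1 gene rose without control replicate 1 (median 0.19) and 7 without control replicate 2 (median 0.91). Kit is expressed by Leydig and mast cells too: none of the 5 mast cell genes (Cpa3, Mcpt4, Tpsb2, Ms4a2, Fcer1a) is listed at 20 dpp, and the part of Leydig cells in the change of Kit was not tested.

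Of 10 peritubular myoid genes, 5 rose (median 0.79; Pdgfra 0.76, Nr2f2 0.73), but 2 without control replicate 1 (median 0.59) and 9 without mutant replicate 2 (median 1.20). Of 13 endothelial and nerve genes, 5 rose and 2 fell (median 0.58; Ngfr -3.86), and leaving out each library in turn gave 2 (without mutant replicate 1) to 4 that rose. Spermatocyte RNA moved the other way, since the summed pachytene markers were 73255 and 55311 scaled reads in mutants and 2201301 and 1927231 in controls. The undifferentiated spermatogonial sum was 48809 and 53048 in mutants and 38970 and 40705 in controls. The part of these shifts in the changes of the 9 genes was not tested.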

How the data were processed

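The authors deposited, for each library, tables of genes and of repeat families in log2 units. Tested on the files, each value is the log2 of a read count times a library factor, plus a pseudocount of 1, with median-of-ratios factors set within each age. All values gave back whole counts within 0.01 reads, and no listed count was below 5. The submitters' processing notes name TopHat2 2.0.6, HTSeq 0.6.1, Bowtie 1.0.0 and mm10, without roles. Neither the gene annotation nor the strand setting is given by these notes or the labels. The values fitted here are those deposited log2 values.

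The 20 dpp libraries (2 per genotype) were fitted with limma 3.58.1 in R 4.3.3 (empirical Bayes with a trend, genes and families in 1 fit), with Benjamini-Hochberg adjustment over 17194 genes and a threshold of 0.05. The fit had 2 residual and a median of 5.21 prior degrees of freedom. It was also run on simulated data in which few genes changed and the library factors were known. That run does not show how the fit performs on these libraries. Single libraries were compared by exact conditional binomial intervals. Alternatives were other scalings, a pseudocount of 0.5, a minimum mean of 50 reads, no trend, no families, voom on the recovered counts, a replicate block and each 20 dpp library left out.

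The rule names the 9 members, the 2 most correlated genes of each but Dmrtb1 (mean of at least 5 CPM) and the 2 genes of lowest p in each list, of which 1 is not reported here. Rara, Kitl, Rbm46 and Prdm9 were named outside it. The members and lists were chosen with earlier results of these data known. Positions are from GENCODE M21 and lengths are its merged exons. Other tools were Python 3.11.15, pandas 2.3.3, SciPy 1.17.1 and matplotlib 3.10.9.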

Additional observations from a re-analysis of the deposited data

Results flagged for a closer look

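The genotype difference of 5 genes was not the same at 10 and 20 dpp by the test of the change itself. The log2 change of that difference was 1.27 for Uchl1, 0.98 for Dmrt1, 1.16 for Sohlh1 and 1.77 for Stra8, each more positive at 20 dpp, and -3.82 for Dmrtb1, in the fit of the 10 and 20 dpp libraries. Each rests on 1 library per genotype at 10 dpp. Of all genes, 31.9% passed in the fit of 8 libraries, 9.29% as more positive and 22.6% as more negative at 20 dpp. In the fit of the 10 and 20 dpp libraries 32% passed. The Dmrt1 and Sohlh1 calls were lost when the variance was fitted without a trend (limma adjusted p = 0.0708 for both). At 10 dpp the ratio was 1.01 for both Dmrt1 (0.99 to 1.03) and Dmrtb1 (0.95 to 1.07).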

How the results depend on the processing

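With total gene reads in place of the deposited factors, the 20 dpp log2 difference was 0.28 for Sohlh2 and 0.44 for Ythdc2, both of opposite sign, and -0.11 for Meioc, no longer called; 8428 genes were higher in place of 4539, and 1 member was lower in place of 2. With the upper quartile these were 0.14, 0.30 and -0.25, 7538 genes and 1 member. Without a trend Kit (0.57) and Meioc (-0.71) were no longer called, and 1 member was lower. Leaving out each library gave 0.42 to 0.72 for Kit, -1.02 to -0.39 for Meioc, 2945 to 4046 genes higher and 1 to 2 members lower; the low gene count came without control replicate 1. For the change of the difference between 10 and 20 dpp, total gene reads gave 0.58 for Sohlh2, 0.43 for Ythdc2 (both reversed) and 1.32 for Kit (now called), and the upper quartile 0.44, 0.29 and 1.18. Without a trend Dmrt1 (0.98) and Sohlh1 (1.16) were not called, and 2938 genes passed in place of 5189. Left-out libraries gave -0.20 to 0.15 for Sohlh2, 0.57 to 0.86 for Kit, -1.30 to -0.67 for Meioc and 1.01 to 1.32 for Sohlh1; Kit was called without mutant replicate 1, and Meioc without either mutant. A replicate block gave 10059 genes and the same 5 members higher and 2 lower (Stra8 1.61); the replicate numbers are only shared, since deviations of equal numbers correlated at 0.036 over 17194 genes. In all, 97 of the member values at 20 dpp kept their direction and call, 7 lost the call and 4 reversed. The causes of these changes were not tested. The 34 recomputed single-library ratios stayed within their intervals, and at 16.5 dpc the 107 Stra8 reads of the control limit its ratio.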
